A study of Tursiops truncatus with 28 samples.

Results

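One transcribed locus of common bottlenose dolphin (Tursiops truncatus) skin is described here, the interval listed as NW_017843244.1:7159497-7174906. It is 1 of 24091 loci in the table and 1 of 143 on its scaffold of the NIST Tur_tru v1 genome. Counted from 1, it runs from position 7159498 to position 7174906, a span of 15409 bases with any introns included. It was chosen by its measured level, which was low in July 2016 and higher in June and September 2017. Its session differences are therefore given as a description, with no test. The rows carry no gene name and no strand. The available gene annotation belongs to a different assembly, and 0 of the intervals could be matched to it. The gene, its exons and its function are thus not analysed here.

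RNA came from the skin of 28 dolphins of Barataria Bay, Louisiana, with 1 library per animal. The July 2016 session holds 9 females. The June 2017 session holds 8 females with 3 males, and the September 2017 session 5 females with 3 males. Age and treatment are not among the labels used here, and no male was sampled in 2016. July 2016 differs from the other sessions in year as well as month, and these cannot be told apart. Cetacean skin is hairless and carries a thick epidermis, in which keratinocytes divide at the base, fill with keratin and lipid on the way up and are shed at the surface. The dermis and blubber lie beneath it. RNA of a skin sample is a mixture of these layers, so fewer cells of a type and less RNA per cell cannot be told apart.

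In July 2016 the locus held between 1.05 and 6.91 FPKM in the 9 females, with a median of 3.66. FPKM is a fragment count scaled to transcript length and to the mapped fragments of the library. June 2017 females ranged from 13.3 to 32.1 FPKM with a median of 17.2 (n = 8), and every one of them lay above every July library. June 2017 males held 9.58, 7.75 and 10.05 FPKM, also above every July library. September 2017 females held 16.8, 23.7, 13.6, 9.73 and 19.8 FPKM. September 2017 males held 2.87, 5.27 and 10.7 FPKM, of which the first 2 lay within the July range. Of the 19 libraries of 2017, 17 lay above the highest July library, and both exceptions were September males.

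**Figure D1:**
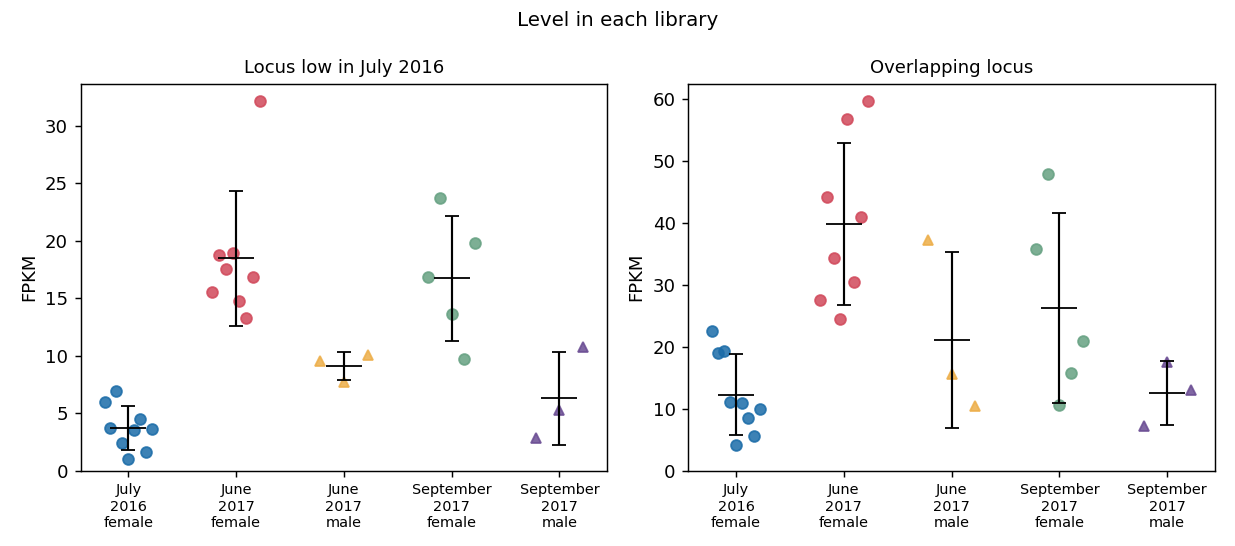
FPKM of the locus (left) and of the locus that overlaps it (right) in each of the 28 libraries, by session and sex. Circles are females, triangles are males, and the black bars give the mean and SD of each group. The 9 July libraries of the left panel sit at 6.91 FPKM or less, and on the right the groups overlap more.

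By group mean the order was July 2016 females at 3.70 ± 1.91 FPKM (SD, n = 9), September males at 6.29 ± 4.02 (n = 3), June males at 9.13 ± 1.21 (n = 3), September females at 16.7 ± 5.40 (n = 5) and June females at 18.5 ± 5.85 (n = 8). Each group overlapped the next in this order, September females and June males only through the lowest such female at 9.73 FPKM and the highest such male at 10.05. June and September females held 4.99 and 4.51 times the July mean. For males these ratios were 2.46 in June and 1.70 in September. Over all 28 libraries the level spanned 30.5-fold, from July 2016 female 5 to June 2017 female 8. Without June 2017 female 8 the mean of the June females was 16.5 ± 2.11 FPKM (SD, n = 7).

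The locus also varied among animals of the same group. Its within-group SD on the log2(FPKM + 1) scale was 0.526, larger than that of 89.1% of the 2533 loci whose mean level lay within 0.5 log2 units of its own, where the median SD was 0.305. July females spread over 6.57-fold, or 4.33-fold without July 2016 female 5, and June females over 2.42-fold, or 1.43-fold without June 2017 female 8. September females spread over 2.44-fold. The 3 males of June spread over 1.30-fold and the 3 of September over 3.73-fold. These ranges come from groups of different size and are not ranked. By mean log2 level the locus stood above 43.1% of the 13192 loci that averaged 1 FPKM or more, on which all tests across loci were run.

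Within 2017 the locus was lower in males than in females. In June all 8 females lay above the highest male, and female mean level was 2.02 times the male mean. In September 4 of 5 females lay above the highest male, and the ratio of means was 2.66. The male minus female difference in log2(FPKM + 1) was -0.90 in June (exact permutation test, two-sided, p = 0.00606, the smallest that 165 arrangements allow) and -1.37 in September (exact p = 0.0357). With sex permuted within both sessions together, the mean difference was -1.14 (exact permutation p = 0.000216, adjusted p = 0.00130). The adjustment covers 6 such tests on this locus and the one that overlaps it, not the choice of the locus from all loci. That choice favoured loci high in the 2017 females, since July holds females only. These p-values are therefore not independent of it.

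In the fit across all tested loci (limma, with session and sex as terms) the sex difference of the locus, male minus female, was -1.12 (SE 0.246, 95% interval -1.63 to -0.62). Its adjusted p of 0.0763 did not pass the threshold of 0.05, which 12 loci passed, 0.0910% of those tested. By p the locus stood at rank 16 of 13192, and at an unadjusted p under 0.05 it was among 373 loci that were lower in males, 2.83% of the total. The call depended on the libraries and terms of the fit. It passed with the 2017 libraries alone (log2 difference -1.12, adjusted p = 0.0386), with the mitochondrial level as a covariate (-1.23, adjusted p = 0.0201), without July 2016 female 5 (-1.12, adjusted p = 0.0320) and without September 2017 male 3 (-1.26, adjusted p = 0.0338). Over the other single libraries left out, the adjusted p reached 0.373. The 2017 females enter both the sex difference and the session differences that chose the locus: under the design the estimates correlate with r = 0.288 for July minus June and 0.358 for July minus September. Both correlations are positive, so choosing a locus low in July also favours a lower fitted level in males. Neither sex test is therefore independent of the choice of the locus. Of the 49 other loci called lower in July 2016 than in both 2017 sessions, 47 (95.9%) also had a lower fitted level in males, against 58.7% of all tested loci, and these estimates share the same females. The direction of the sex difference was thus not particular to the locus.

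Between June and September 2017 the locus did not pass the test. The September minus June log2 difference was -0.30 (95% interval -0.78 to 0.17, limma adjusted p = 0.623), where 5 loci, 0.0379%, were called. The sexes did not differ detectably in this change (log2 difference, male minus female, -0.47, 95% interval -1.48 to 0.55, limma adjusted p = 1). For that contrast 0 loci, 0%, were called by limma, and 487 had an unadjusted p under 0.05.

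Sampling day within a session was also examined, since the July dates run from day 11 to day 19, the June dates from day 14 to day 23 and the September dates from day 19 to day 21. The slope of the locus was 0.03 log2 units per day (SE 0.0362, limma adjusted p = 0.831), and limma called 0 loci, 0%, with 1169 at an unadjusted p under 0.05. With group means removed, r between level and day was -0.09 in July (Spearman rho -0.14, n = 9) and 0.24 in September (rho 0.25, n = 8), with exact permutation p of 0.821 and 0.567. In June r was 0.61 (rho 0.26, n = 11, exact permutation p = 0.0622 for r and 0.448 for rho, adjusted p = 0.187 for r over 3 sessions). The June value rested on the days farthest from the middle, one of which is that of June 2017 female 8: without the 2 most distant libraries r was -0.33. Likewise r became 0.16 in July and 0.74 in September.

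Technical measures of the libraries overlapped between sessions. Relative depth, read from the steps between low values, ran from 0.807 to 1.37 in July 2016, 0.762 to 1.21 in June 2017 and 0.892 to 1.48 in September 2017. The 12 mitochondrial loci of at least 500 bases took 3.04% ± 1.29 (SD, n = 9), 2.92% ± 1.08 (n = 11) and 3.37% ± 0.915 (n = 8) of summed FPKM. With group means removed, the level of the locus had r = -0.19 with log2 relative depth (rho -0.19, permutation p = 0.347 and 0.362, n = 28) and r = -0.28 with the share of the 10 most abundant loci (rho -0.19, permutation p = 0.134 and 0.381). Its r with the mitochondrial level was -0.38 (rho -0.34, permutation p = 0.0898 and 0.114, adjusted p = 0.2004 and 0.341 over the 3 measures). That r was -0.59 in July, -0.57 in June and 0.20 in September. With the share of the 10 most abundant loci r was -0.32 in July, -0.03 in June and -0.71 in September. With log2 relative depth it was -0.24, -0.37 and -0.01. Without the 2 most distant libraries r was -0.22 with depth, -0.30 with the share of the 10 most abundant loci and -0.27 with the mitochondrial level. The fitted July minus June difference of the locus, -2.18 log2 units, was -2.10 with relative depth as a covariate and -2.17 with the mitochondrial level as one. This difference is among those that chose the locus, so its values are given as a description, and a technical cause was not tested.

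A second locus overlaps the first. It runs from position 7086723 to position 7160685, and both share 1188 bases, 7.71% of the span of the first and 1.61% of the span of the second. How fragments were divided between overlapping intervals was not given in the sources used here, and its part in either level was not tested. The overlapping locus was the more abundant in 27 of 28 libraries. It held between 4.08 and 22.5 FPKM in July 2016, with a median of 10.9 (n = 9). June 2017 females ranged from 24.5 to 59.7 FPKM with a median of 37.6 (n = 8), above every July library, and June males held 37.2, 15.6 and 10.5 FPKM. September females held 35.8, 47.9, 10.6, 15.8 and 21.0 FPKM, and September males 7.27, 17.5 and 12.9. Of the September libraries 6 of 8 lay at or below the highest July library, and of the June libraries 2 of 11 did, both of them male.

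This overlapping locus was lower in July 2016 than in June 2017, with a log2 difference of -1.70 (SE 0.300, limma adjusted p = 0.000892). The same direction was called at 2.18% of tested loci. This overlapping locus shares bases with the locus chosen for its low July level, and both moved together within groups. Its session differences are thus not independent of that choice. Its July minus September difference of -1.03 (SE 0.332) was not called (limma adjusted p = 0.103), where 0.652% of loci were called lower in July. It passed only with the mitochondrial level as a covariate (log2 difference -1.14, adjusted p = 0.0491), and over the other alternatives the adjusted p lay between 0.0624 and 0.232. In males it was lower by a log2 difference of -0.96 (limma adjusted p = 0.722). Permuting sex within both 2017 sessions gave -0.95 (exact permutation p = 0.0111, adjusted p = 0.0223).

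Within groups both loci moved together. With the means of the 5 groups of session and sex removed, r was 0.66 (rho 0.59, permutation p = 0.000520 and 0.00271, n = 28, limma adjusted p = 0.493 over 13191 loci) and 0.56 without the 2 libraries in which the first locus was farthest from the middle. By session r was 0.86 in July, 0.32 in June and 0.61 in September. July 2016 female 5 was the lowest of all libraries at both, and June 2017 female 8 the highest at both. The first locus was chosen for its low July level, so a low ratio in July partly follows from that choice. The ratio of the first locus to the second was not constant. It averaged 0.312 ± 0.101 (SD, n = 9) in July females, 0.490 ± 0.149 (n = 8) in June females and 0.761 ± 0.348 (n = 5) in September females. June males averaged 0.572 ± 0.357 and September males 0.508 ± 0.281 (n = 3 each). It ran from 0.195 in July to 1.28 in September 2017 female 3, the 1 library in which the first locus was the higher.

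**Figure D2:**
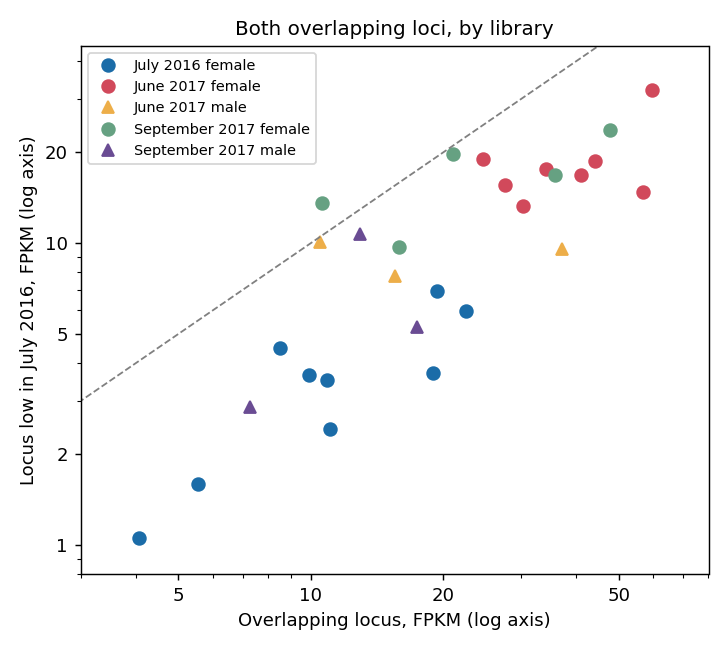
FPKM of the locus (vertical) against that of the locus overlapping it (horizontal), both on log axes, 1 point per library, with equal values on the dashed line. Points run together from July 2016 female 5 at the lower left to June 2017 female 8 at the upper right, and 27 of 28 lie below the line.

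Within 200 kb on the same scaffold the table holds 14 other loci: the overlapping one, 5 before it and 8 after it in coordinate order. Of these, 10 averaged 1 FPKM or more. Of the 10, 2 were called lower in July 2016 than in June 2017, the overlapping locus and 1 other, against 2.18% of all tested loci. The overlapping locus shares bases with the chosen one and moved with it within groups. Its call is thus not independent of the choice, and the count is not read as a trait of the neighbourhood. The other called locus, at positions 7028451 to 7052350, ends 107147 bases before the first one. It held between 52.9 and 95.7 FPKM in July with a median of 63.6 (n = 9), and between 74.9 and 169.5 in June females with a median of 90.5 (n = 8). June males held 68.2, 97.4 and 64.5 FPKM, and 7 of the 11 June libraries lay at or below the highest July library, July 2016 female 6. Its log2 difference was -0.57 (SE 0.141, limma adjusted p = 0.0136), a far smaller change than at the overlapping pair. Its r with the first locus within groups was 0.10.

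Between July 2016 and September 2017 limma called 0 of the 10 neighbours, and 2, the overlapping locus and that at positions 7028451 to 7052350, had an unadjusted p under 0.05. Both were lower in July, as were 7.25% of all tested loci at that threshold. The nearest locus on the other side begins 7058 bases after the first one ends, at positions 7181965 to 7216221. It held 17.9 ± 3.74 FPKM in July females (SD, n = 9), 16.0 ± 4.11 in June females (n = 8) and 19.2 ± 2.21 in September females (n = 5). Its July minus June difference was 0.17 (95% interval -0.09 to 0.44, limma adjusted p = 0.474) and its July minus September difference -0.12 (-0.41 to 0.17, adjusted p = 0.755). With 6 further neighbours it formed a set of 7 whose means ran from 1.82 to 75.7 FPKM. Their July minus June log2 differences lay between -0.20 and 0.17, and their July minus September differences between -0.29 and 0.07.

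**Figure D3:**
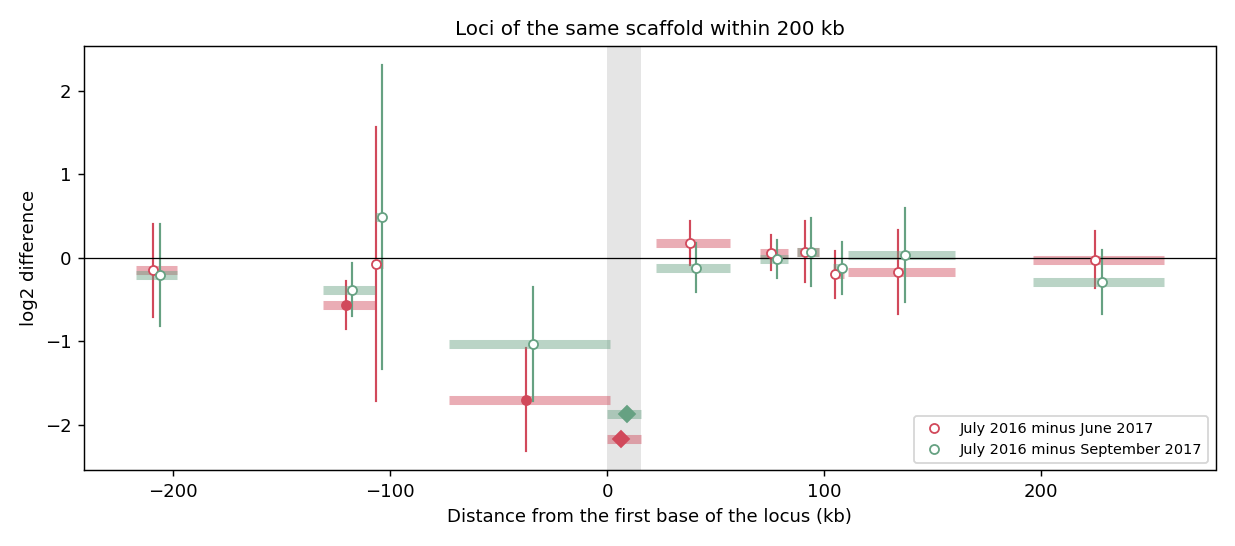
Log2 difference of July 2016 from June 2017 (red) and from September 2017 (green) at the 11 tested loci of the scaffold within 200 kb, against distance from the first base of the locus in kb. Thick bars show each span, circles the estimate with its 95% interval, and filled circles an adjusted p under 0.05. Diamonds in the grey band are the locus itself, shown without an interval because it was chosen on these values. The loci after the band lie near 0 and the overlapping one just before it does not.

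The remaining tested neighbour, at positions 7052506 to 7055932, was on in some animals and nearly off in others. It was listed at 0 in 9 libraries and lay above 10 FPKM in 7, with no library between 3.55 and 10. The libraries above 10 were 4 from July, 2 from June and 1 from September, all female, and the highest male held 1.15 FPKM. June 2017 female 8, the highest library at the first locus, was also the highest here at 55.6 FPKM. Its r with the first locus within groups was 0.28, and the 9 tested neighbours that do not overlap the first locus had r between -0.09 and 0.34. Of the 4 neighbours under the filter, with means of 0.181, 0.942, 0.202 and 0.353 FPKM, that at positions 7228970 to 7230289 was listed at 0 in 27 libraries and at 5.66 FPKM in July 2016 female 8.

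To find loci that follow the locus among animals of the same session and sex, its log2 level was used as a covariate for each of the other 13191 tested loci, with the 5 group means in the model. No locus passed: limma called 0 rising and 0 falling, 0% each, and the smallest adjusted p was 0.457. At an unadjusted p under 0.05 there were 303 rising loci, 2.30%, and 472 falling, 3.58%. The overlapping locus stood at rank 3 of 13191 by p in this scan and at rank 4 by r (slope 0.864 log2 units per unit, SE 0.199, adjusted p = 0.493). With session means alone removed, so that the sex difference entered too, 1 locus passed, and it was the overlapping one (slope 0.838, adjusted p = 0.0421).

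The loci closest to it by r are therefore named as a description only, with r over 28 libraries that share depth and scaling. The highest r, 0.70, was at positions 2285531 to 2287087 of scaffold NW_017844471.1 (rho 0.65, and 0.77 without the 2 most distant libraries), where levels ran from 0.422 to 3.21 FPKM. Next came a 115839-base locus of scaffold NW_017843806.1 at positions 576299 to 692137, with r = 0.68, rho = 0.69 and a mean of 2.75 FPKM. A locus of steadier level, at positions 784227 to 881709 of scaffold NW_017842452.1, held 16.8 ± 2.19 FPKM (SD, n = 28) with r = 0.67. With the overlapping locus listed apart, the other 5 of the 8 highest had r between 0.62 and 0.64, at positions 1648157 to 1668264 of NW_017843440.1, 67646542 to 67692424 of NW_017842794.1, 378017 to 416586 of NW_017843160.1, 7606173 to 7637588 of NW_017842997.1 and 6349566 to 6399734 of NW_017844198.1.

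The most negative r, -0.75, was at positions 7772190 to 7794277 of scaffold NW_017843193.1 (rho -0.70), with 14.4 ± 2.64 FPKM (SD, n = 28). By session it was -0.85 in July, -0.75 in June and -0.60 in September. The others were at positions 379154 to 431961 of NW_017843700.1 (r = -0.73), 27747123 to 27753597 of NW_017843255.1 (-0.69) and 32543327 to 32552608 of NW_017842414.1 (-0.69). The 12 loci were picked for their r over these same libraries, so the sign of r within each session, the same in all 3, is largely set by that choice. In June r was as low as 0.29 at NW_017843160.1 and close to 0, at -0.04, at NW_017842414.1. Several of these values also depended on which means were removed. With session means alone removed, r was -0.45 at NW_017843193.1, -0.41 at NW_017843700.1, -0.33 at NW_017842414.1 and 0.46 at NW_017844471.1, each over 1.5 times nearer to 0.

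**Figure D4:**
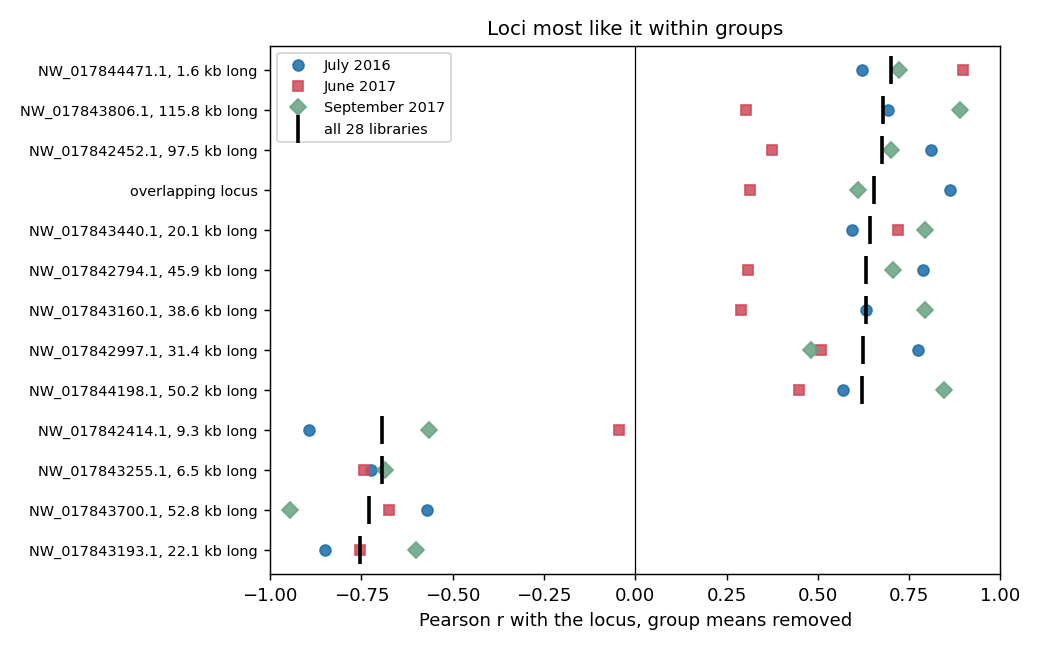
Pearson r with the locus, after the group means were removed, for the overlapping locus and the 12 loci with the highest and lowest r, named by scaffold and span. Black ticks give r over all 28 libraries, and circles, squares and diamonds the July, June and September libraries. The 12 were chosen on the pooled r, which the sessions make up, and June lies nearest to 0 in 7 of the 13 loci.

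Session means were not used to find these loci, and their own session differences were tested. They were picked for varying with a locus that was itself chosen for its low July level. These tests are thus not fully independent of that choice. Of the 8 rising loci, 2 were lower in July 2016 than in June 2017, where 2.18% of all tested loci were called lower. That of NW_017842794.1 had a log2 difference of -1.44 (limma adjusted p = 0.00202) and that of NW_017842997.1 one of -0.81 (adjusted p = 0.0311). Another, of NW_017843806.1, was higher in July, by 0.74 (adjusted p = 0.0165), a direction called at 5.06% of tested loci. Of the 4 falling loci, that of NW_017842414.1 was lower in July than in June, by -0.65 (adjusted p = 0.0118), and than in September, by -0.68 (adjusted p = 0.0388). Against September limma called 0 of the 8 rising loci, where 0.652% of tested loci were called lower in July. Only 1 of the 8, that of NW_017843806.1 and higher in July, had an unadjusted p under 0.05. In either direction 15.4% of all tested loci had such a p. Among the 303 rising loci at an unadjusted p under 0.05, 19 (6.27%), the overlapping locus among them, were lower in July than in June. The share was 2.18% over all tested loci and 1.27%, or 6 loci, among the 472 falling ones. The median July minus June difference was 0.02 in the rising loci, 0.06 in the falling ones and 0.04 over all tested loci. Lower in July than in September were 3 (0.990%) of the rising loci and 2 (0.424%) of the falling, against 0.652% of tested loci. The median July minus September difference was 0.07 in the rising loci, -0.07 in the falling ones and -0.003 over all tested loci.

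Besides the locus itself, 49 loci were called lower in July 2016 than in both 2017 sessions. Within groups their r with it ran from -0.69 to 0.58 with a median of 0.02, and 26 of 49 (53.1%) were above 0, against 46.8% and a median of -0.02 over all tested loci. At an unadjusted p under 0.05, 3 of the 49 rose with it and 2 fell, against 2.30% and 3.58% of all tested loci. The overlapping locus, not one of the 49, had a higher r than each of them.

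**Figure D5:**
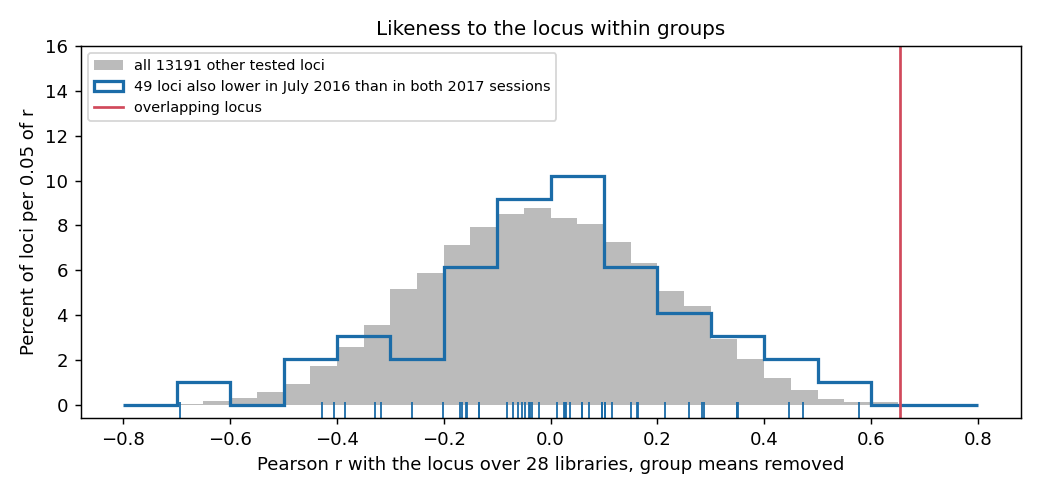
Distribution of Pearson r with the locus over 28 libraries, after the group means were removed, as a percent of loci per 0.05 of r. Grey bars are all 13191 other tested loci, the blue outline and ticks the 49 loci also called lower in July 2016 than in both 2017 sessions, and the red line the overlapping locus. The blue outline spans 0 much as the grey bars do, and the red line lies to the right of it at 0.66.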

How the data were processed

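Total RNA of skin was extracted with on-column DNase digestion and made into directional libraries, per the labels' protocols. Tools named in the submitters' processing notes are Cufflinks 2.2.1, TopHat2 2.1.1, Bowtie, Trimmomatic 0.33 and FastQC 0.1, with no role or order. Annotation, settings and strand use were not given in the sources used here. Values deposited by the authors, 1 row per locus and 1 column per library, were read as FPKM normalized by the authors, a unit that the table itself does not state. FPKM divides by the fragments of the whole library, so a few abundant loci can lower all other values.

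Columns were matched to samples by title, and 0 columns were left unmatched. Levels were taken as log2(FPKM + 1), which understates differences at low loci. Loci that averaged 1 FPKM or more over all libraries were tested with limma 3.58.1 in R 4.3.3 (empirical Bayes with trend and robust settings, Benjamini-Hochberg adjustment over all tested loci, two-sided) with session and sex as additive terms. A model of the 5 group means served the sex difference of the change within 2017 and, with the level of the locus as a covariate, the scan for loci that follow it. In simulated data with independent noise at each locus, the limma fits recovered known differences on average. These were differences by sex, July against June, sampling day and level of the locus. The other tests were not simulated. Read totals are unknown. Relative depth came from 4754 loci under 0.5 FPKM, and all 378 pairs of libraries lay within 0.05 log2 units of it. Permutations for correlations kept libraries within their groups, exactly for single sessions and with 100000 draws over all 28 libraries. For the sex tests, sex was permuted within each 2017 session, over every arrangement. The smallest number of libraries in a group is 3, which limits precision for males.

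Named loci are the locus, each row within 200 kb, and the loci with the 8 highest and 4 lowest r, the overlapping locus listed apart. The locus, these rules and the tests were chosen with earlier results of these data known. No marker list could be used without gene names. The library titles give 1 animal, July 2016 female 6, a year that differs from its date, and the date was used. Figures were drawn with matplotlib 3.10.9.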

Additional observations from a re-analysis of the deposited data

Results flagged for a closer look

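Among 69 checks of a group of 5 to 9 libraries at 23 loci, 4 libraries stood far from the rest of their group on the log2(FPKM + 1) scale, where chance alone flags about 1 in 20 groups. At the locus itself June 2017 female 8 held 32.1 FPKM and the other 7 females 13.3 to 18.9, a gap of 0.602 of the group's range. The same animal held 2.30 FPKM at positions 2285531 to 2287087 of scaffold NW_017844471.1, the locus with the highest r, against 0.454 to 0.923 in the others (gap 0.658). That locus was picked for its r, so the same animal standing out at both partly follows from the pick. At positions 7028451 to 7052350 of scaffold NW_017843244.1, July 2016 female 6 held 95.7 FPKM against 52.9 to 69.9 (gap 0.532). At positions 7052506 to 7055932 September 2017 female 2 held 13.5 FPKM against 0 to 0.819 (gap 0.776).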

How the results depend on the processing

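The July minus June difference of the locus kept its direction under every alternative run, from -2.50 to -2.04 log2 units, as did the July minus September difference, from -2.16 to -1.74. Both differences chose the locus, so their direction was largely set by that choice and these ranges are a description. The sex difference kept its direction, and its adjusted p passed the threshold with the 2017 libraries alone (-1.12) and with the mitochondrial level as a covariate (-1.23). With each library left out in turn it ran from -1.26 to -0.94. The count of rising loci was 0 under every alternative but session means alone removed, where it was 1, the overlapping locus. That 1 locus was also lower in July 2016 than in June 2017. The count of neighbours called against September was 0, except 1 with the mitochondrial level as a covariate. Causes of these changes were not tested. Of 747 values of the named loci under alternatives, 731 kept their call or stayed within their error, 15 moved, 1 gained a call and 0 reversed. Fits restricted to the sessions compared were not run for the scan or the day slope, and females alone give no sex difference. Depth limits the 4 neighbours under 1 FPKM, which were not tested.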
